A study of Mus musculus with 9 samples.

Results

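The Ms4a membrane protein family was followed in monocytes of a mouse model of neuromyelitis optica (NMO). The members were a list of 7 symbols, Ms4a4a, Ms4a4b, Ms4a4c, Ms4a6b, Ms4a6c, Ms4a6d and Ms4a7, and were taken as the rows with these symbols among the 23238 symbols of the count tables. A row was found for 6 of the 7, and Ms4a4a was not analysed here. All 6 passed the filter on low counts and were tested.

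The data were QuantSeq 3ʹ read counts of 9 libraries in 3 groups of 3. Nor_Bl_mono was blood monocytes of untreated normal mice. NMO_Bl_mono and NMO_Br_mono were blood monocytes and brain monocytes of mice that had received NMO-IgG, antibody purified from patients, together with human complement in the striatum of a single side. All mice were young adult female wild-type (WT) C57BL/6N mice, sampled at day 1, and each library came from a pool of 5 mice. The sort kept CD45+CD11b+P2ry12-Ly6C+Ly6G- cells. The brain was digested with enzyme and cleared of myelin, whereas blood cells came from a density gradient, so the isolation and the tissue cannot be told apart. Brain monocytes of normal mice and of mice given a control antibody were not analysed here. In bulk RNA of sorted cells, fewer cells of a type and less RNA per cell cannot be told apart.

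MS4A proteins are membrane-spanning proteins with both ends in the cytoplasm, which sit in the membranes of immune cells beside signalling receptors and affect their transport and signalling. The founding members are CD20 of B cells (Ms4a1) and the beta chain of the high-affinity IgE receptor of mast cells (Ms4a2). Ms4a4b is known from T and NK cells, where its protein associates with the receptor GITR. Ms4a6b is found in T cells as well as in myeloid cells. Ms4a4c responds to interferon, Ms4a6c is abundant in monocytes, Ms4a6d is a gene of monocytes and macrophages, and Ms4a7 marks macrophages, including those of the borders of the brain.

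The members lie close together on mouse chromosome 19, in a stretch of 283.8 kb from 11321039 to 11604804 (RefSeq, GRCm38.p6, the assembly that mm10 denotes). Genes outside the list also lie there, Gm8369 between Ms4a6c and Ms4a6b and Ms4a4d between Ms4a6b and Ms4a6d. Among the members the order is as follows. Ms4a7 (11321039 to 11336146, minus strand) comes first. It is followed on the plus strand by Ms4a4a (11375488 to 11392915), Ms4a4c (11404717 to 11427246), Ms4a4b (11443558 to 11463549), Ms4a6c (11469353 to 11487182) and Ms4a6b (11518559 to 11530403). Ms4a6d (11586606 to 11604804, minus strand) comes last. Several members are close copies of each other. In a comparison of the longest coding transcripts, Ms4a4b and Ms4a4c aligned over 1444 bases at 82.8% identity, and Ms4a6b and Ms4a6c over 1234 bases at 86.1%. The counts included reads with multiple alignments, so copies can share reads. Of all windows of 75 bases, the read length, 2.2% in Ms4a4b, 3.78% in Ms4a4c, 1.11% in Ms4a6b, 3.23% in Ms4a6c, 0.479% in Ms4a6d and 0% in Ms4a7 occurred unchanged in a transcript of another gene (GENCODE M21). Within the last 500 bases of each transcript, where 3ʹ reads start, Ms4a4b, Ms4a6b, Ms4a6d and Ms4a7 had no such window, Ms4a4c had 58 of 1139 and Ms4a6c had 22 of 426.

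The copies resemble each other before the start site too, and the stretches of the neighbours Ms4a4b and Ms4a4c are shown because the brain levels of these genes lay on opposite sides of their levels in NMO blood. They are the 150 bases before a RefSeq transcript start on the plus strand, at chr19:11443408-11443557 for Ms4a4b and chr19:11407511-11407660 for Ms4a4c. The start used for Ms4a4b is that of the gene, whereas the start used for Ms4a4c lies inside the gene, downstream of its first base. Capitals mark the letters GAGGAA, a core recognised by the myeloid and B cell factor PU.1.
Ms4a4b: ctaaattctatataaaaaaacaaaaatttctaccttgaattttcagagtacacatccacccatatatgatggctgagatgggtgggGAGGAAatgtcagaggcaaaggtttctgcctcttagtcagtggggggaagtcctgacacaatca
Ms4a4c: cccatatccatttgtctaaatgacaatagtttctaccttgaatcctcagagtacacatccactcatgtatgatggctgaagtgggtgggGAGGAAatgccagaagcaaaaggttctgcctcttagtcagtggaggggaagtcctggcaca
Over the full promoter window, 250 bases before to 50 after the start, the pair aligned over 178 bases at 89.3% identity. The same letters stood 64 bases before the start in Ms4a4b and 61 bases before it in Ms4a4c. The promoters of Ms4a6b and Ms4a6c aligned over 213 bases at 83.1% and held no such match. On either strand, GAGGAA was held by 28.3% of all 32851 mouse promoter windows. For AP-1, a match to TGANTCA, found in 7.81% of windows, lay after the start of Ms4a4b at base 23 and was not found in the window of Ms4a4c. For RUNX, a match to TGTGGT on the minus strand was found in Ms4a4c, 211 bases before the start, as in 16.8% of windows. For C/EBP, a match to TTGCNNAA, found in 10.8% of windows, was found in none of the members with a window. The stretch of Ms4a7 lies at chr19:11336147-11336296 on the minus strand and is given 5ʹ to 3ʹ on that strand. It is shown because Ms4a7 reads were absent from normal blood, and it held none of the 4 motifs. Its match to GAGGAA lay inside the transcript, 44 bases from its start. Another RefSeq start of Ms4a7 had a match to TGANTCA 81 bases before it.
Ms4a7: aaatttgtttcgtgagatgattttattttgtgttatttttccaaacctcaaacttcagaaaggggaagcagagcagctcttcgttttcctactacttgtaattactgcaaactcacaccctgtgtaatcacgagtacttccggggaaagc

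Total counts lay between 7584649 and 10419647 in the 9 libraries. Levels are given as CPM, read counts put on a common library size by TMM, and 3 counts, taken as the floor of a library, corresponded to 0.271 to 0.429 CPM. Replicate 3 of NMO_Bl_mono stood apart: of the genes well expressed in the other libraries of its group, 22.17% had at most 3 counts there. The share, taken in the same way within each group, was 8.283% in replicate 2 of NMO_Br_mono and at most 1.941% in the others. Both replicate 3 of NMO_Bl_mono and replicate 2 of NMO_Br_mono are therefore also left out where a result rests on them. The sorting markers Ptprc (CD45) and Itgam (CD11b) were present in every library, at no less than 463 and 297 CPM. Ptprc was 2.19-fold lower in brain than in NMO blood without overlap (log2 fold change -1.13, SE 0.33, edgeR adjusted p = 0.426). Ly6c2, a gene of the Ly6C antigen that the sort selected for, was at 435, 59.1 and 198 CPM in brain and 658, 735 and 493 CPM in NMO blood, also without overlap (log2 fold change -1.45, SE 0.57, edgeR adjusted p = 0.802). P2ry12, which the sort selected against, was at 23.6, 69.3 and 9.89 CPM in brain and 16.6, 0.866 and 0 CPM in NMO blood. The 8 markers of classical monocytes together reached 2450 to 3320 CPM in Nor_Bl_mono, 2310 to 4650 in NMO_Bl_mono and 2960 to 5110 in NMO_Br_mono.

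**Figure D1:**
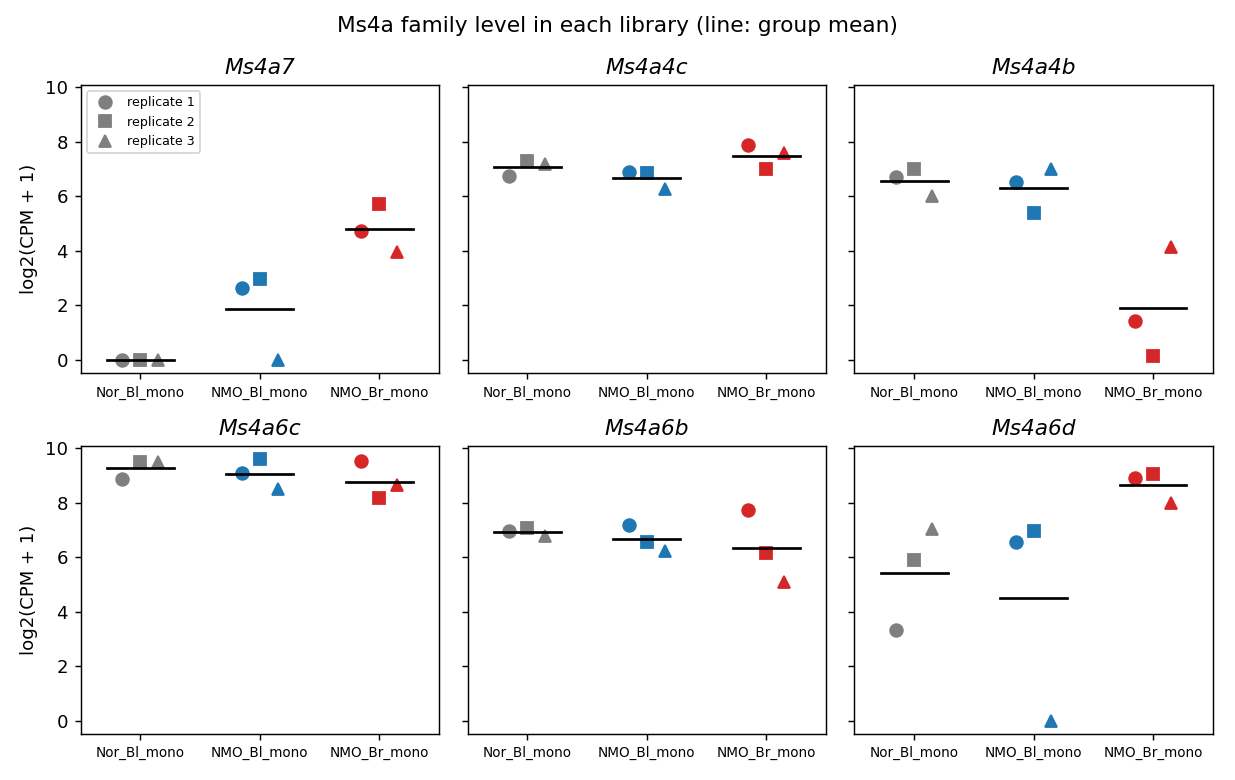
Level of each of the 6 members as log2(CPM + 1), in 3 panels a row, with 1 point for each library (circle, square and triangle for replicates 1, 2 and 3) and a line at the mean of the 3 log values of a group. The brain points of Ms4a4b lie below and those of Ms4a6d and Ms4a7 above every blood point, while the points of Ms4a6c and Ms4a6b overlap between groups.

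NMO_Br_mono against NMO_Bl_mono compares brain and blood monocytes of injected mice. Ms4a4b was 14.3-fold lower in brain by the group means, Ms4a6d 5.82-fold higher, Ms4a7 7.51-fold higher and Ms4a4c 1.80-fold higher. For these 4 of 6 members the libraries of the groups did not overlap, 3 higher and 1 lower in brain, whereas 12.3% of all 10107 genes tested did not overlap. By edgeR, 0 of 6 members passed an adjusted p of 0.05, which 0.247% of all genes passed. DESeq2 and limma-voom also called 0, against 3.3% and 0.505% of all genes. The unadjusted threshold of the study, p under 0.05 with a fold change of 1.2, was passed by 1 member, Ms4a4b, and by 5.32% of all genes. That count was 0 without replicate 1 of NMO_Br_mono and 2 without replicate 3 of NMO_Bl_mono, against 5.5% and 6.25% of all genes. The median log2 fold change of the members was 0.44, and that of all genes was 0.05.

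Ms4a7, the macrophage gene, had no read in any of the 3 Nor_Bl_mono libraries. In NMO_Bl_mono it measured 5.29, 6.93 and 0 CPM in replicates 1 to 3, from 38, 64 and 0 reads. In NMO_Br_mono it measured 25.6, 51.6 and 14.4 CPM, from 228, 546 and 146 reads. Every brain library lay above every blood library, and the NMO blood libraries with reads lay above all normal ones, while replicate 3 of NMO_Bl_mono equalled them at 0. The mean was 30.6 ± 19.1 CPM in brain and 4.07 ± 3.62 CPM in NMO blood (SD, n = 3). The log2 fold change between these groups was 2.90 (SE 2.89, edgeR, adjusted p = 1), so the difference did not pass the test. It was 2.33 without replicate 3 of NMO_Bl_mono and 1.73 without that library and replicate 2 of NMO_Br_mono. The brain mean was 87.4 times the floor of 3 counts per library in normal blood, a ratio that covers counting error only. For brain against normal blood, the unadjusted p was 0.0164 and the adjusted p 0.708 by edgeR, and DESeq2 gave an adjusted p of 0.00217.

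Ms4a6d, a gene of monocytes and macrophages, measured 475, 533 and 253 CPM in NMO_Br_mono. In NMO_Bl_mono it measured 93.0, 124 and 0 CPM, and in Nor_Bl_mono 9.01, 58.4 and 132 CPM. All brain libraries lay above all blood libraries, and the blood groups overlapped over a wide range, with 0 reads in replicate 3 of NMO_Bl_mono and 63 reads in replicate 1 of Nor_Bl_mono. Means were 420 ± 147, 72.2 ± 64.4 and 66.3 ± 61.7 CPM (SD, n = 3). Brain against NMO blood gave a log2 fold change of 2.54 (SE 1.43, unadjusted p = 0.0978, edgeR adjusted p = 0.853). Without replicate 3 of NMO_Bl_mono it was 1.97 (SE 0.83) with an unadjusted p of 0.0343 and an adjusted p of 0.677, and without replicate 2 of NMO_Br_mono as well it was 1.76 (SE 0.91, adjusted p = 0.736). Brain against normal blood gave 2.66 (SE 1.44, edgeR adjusted p = 0.743), a 6.34-fold difference of the means. Direction was higher in brain in all 21 settings tried for either comparison, the main fit aside, but no setting called the gene at an adjusted p of 0.05. With groups that did not overlap, leaving out a library could hardly reverse that direction.

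Summed markers of macrophages, microglia and granulocyte precursors were also higher in brain than in blood, whereas the sum for border-associated macrophages overlapped. The 8 macrophage markers summed to 412 to 1480 CPM over the 6 blood libraries and to 3120, 3270 and 2320 CPM in brain. Against NMO blood, 7 of the 8 were higher without overlap, as were 637 of all 10107 genes tested. The same held for 3 of 7 microglia markers tested and 2 of 8 granulocyte precursor genes. Of 5 border-associated markers tested, 1 was higher and 1 lower without overlap. Apoe, the lipid carrier, reached 1130, 1170 and 710 CPM in brain and 498, 523 and 106 CPM in NMO blood. C1qa and C1qc, subunits of complement C1q, were at 0 in all 6 blood libraries and at 67.5 to 181 and 79.9 to 122 CPM in brain. The 9 microglia markers summed to at most 73.7 CPM in blood and to 430, 645 and 492 CPM in brain. Of these, Fcrls and Olfml3 were at 0 in all blood libraries, Tmem119 was at 0 in replicate 2 of NMO_Br_mono, and P2ry12 overlapped between the groups. The 7 markers of border-associated macrophages summed to 144, 378 and 169 CPM in brain and 621, 362 and 251 CPM in NMO blood, where the platelet-shared gene Pf4 made up 539, 275 and 125 CPM. The mannose receptor Mrc1 was at 25.2, 61.8 and 36.8 CPM in brain and at most 12.1 CPM in NMO blood, and Folr2 was at 0 in all 9 libraries. The 8 neutrophil and granulocyte precursor genes summed to 375, 1850 and 1130 CPM in brain. In the 6 blood libraries they summed to 59.2 to 268 CPM. In brain, S100a8 held 147, 808 and 388 CPM of this sum and S100a9 78.4, 656 and 430 CPM. S100a9 overlapped NMO blood, where replicate 3 was at 125 CPM. By log2 fold change against NMO blood, 6 of the 8 were higher in brain and 2, Retnlg and Prtn3, lower. Retnlg was at 0 in all brain libraries, 78.4, 16.8 and 0 CPM in NMO blood and 37.6 to 124 CPM in normal blood. Within brain this sum was highest in replicate 2, the library with the highest Ms4a6d and Ms4a7. The macrophage, microglia and border-associated sums were highest there too. Of these sums, only that of the macrophage markers kept the order of Ms4a6d and Ms4a7 over all brain libraries. The sum of granulocyte precursor genes was lowest in replicate 1, at 375 CPM, where Ms4a6d was at 475 CPM. In replicate 3 it was 1130 CPM, with the lowest Ms4a6d and Ms4a7 of the brain libraries, 253 and 14.4 CPM. The part of such cells in the levels of Ms4a7 and Ms4a6d was not tested.

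Ms4a4b, the lymphocyte gene of the family, was lower in brain. It measured 104, 128 and 63.4 CPM in Nor_Bl_mono, 91.8, 41.4 and 129 CPM in NMO_Bl_mono, and 1.69, 0.0946 and 16.6 CPM in NMO_Br_mono. The brain values rested on 15, 1 and 168 reads, of which the single read of replicate 2 is under the floor, and all lay below every blood value. The blood groups overlapped. Brain against NMO blood gave a log2 fold change of -3.83 (SE 1.45, unadjusted p = 0.0197, edgeR adjusted p = 0.802), and brain against normal blood gave -4.00 (SE 1.47, unadjusted p = 0.0164, adjusted p = 0.708). Replicate 3 of NMO_Br_mono decided the size: without it the first difference was -6.59 (adjusted p = 0.257). Without replicate 1 of NMO_Br_mono it was -3.39 with an unadjusted p of 0.0584. With both libraries that stood apart left out, it was -2.84 (SE 1.02, adjusted p = 0.5).

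T and NK cell genes were present in the blood libraries, and their sum, like Ms4a4b, was lower in brain. The 11 markers with a row summed to 1980 to 2320 CPM in Nor_Bl_mono, 2270 to 2910 CPM in NMO_Bl_mono and 59.9, 294 and 166 CPM in NMO_Br_mono. Of 10 tested, 2 fell at an adjusted p of 0.05 by edgeR in brain against NMO blood, the kinase Txk (adjusted p = 0.0103) and the cytotoxic granule gene Nkg7 (adjusted p = 0.0142). Gzma, granzyme A, was at 1230, 1450 and 1800 CPM in NMO blood and 4.27, 162 and 47.2 CPM in brain. Txk and Cd3e were at 0 in all 3 brain libraries, and Cd3e had at most 12.9 CPM anywhere. Replicate 3 of NMO_Bl_mono held the highest sum of these markers and the highest Ms4a4b of its group. There Gzma made up 1800 of 2910 CPM, and Lck and Ncr1 were at 0. Not all blood libraries followed this order. Replicate 2 of Nor_Bl_mono had the highest Ms4a4b of its group, 128 CPM, and the lowest marker sum, 1980 CPM. Replicate 2 of NMO_Bl_mono had the lowest blood Ms4a4b, 41.4 CPM, yet a sum of 2420 CPM, above the 2270 CPM of replicate 1. Within brain, Ms4a4b was highest in replicate 3, whereas the markers were highest in replicate 2. The part of T and NK cell RNA in the Ms4a4b difference was not tested.

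Ms4a4c, the interferon-responsive neighbour of Ms4a4b, measured 236, 129 and 190 CPM in NMO_Br_mono, 118, 114 and 76.9 CPM in NMO_Bl_mono and 106, 158 and 145 CPM in Nor_Bl_mono. Brain lay above NMO blood without overlap, though replicate 2 of NMO_Br_mono was close to the highest NMO blood library, and brain overlapped normal blood. The log2 fold change was 0.84 (SE 0.59, edgeR adjusted p = 1) against NMO blood and 0.44 (SE 0.58, adjusted p = 1) against normal blood. The ratio of Ms4a4b to Ms4a4c reads within a library does not depend on the scaling between libraries. In brain monocytes it was 0.00716, 0.000736 and 0.0873, below every blood library. In normal blood it was 0.978, 0.808 and 0.438, and in NMO blood 0.781, 0.363 and 1.68.

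Ms4a6c, the monocyte gene, had the most reads of the family in 8 of 9 libraries. It measured 465, 718 and 729 CPM in Nor_Bl_mono, 548, 782 and 359 CPM in NMO_Bl_mono and 733, 285 and 396 CPM in NMO_Br_mono, and the groups overlapped. The log2 fold change was -0.26 (SE 0.44, edgeR adjusted p = 1) against NMO blood and -0.43 (SE 0.44, adjusted p = 1) against normal blood. Ms4a6b, its close copy, measured 122, 132 and 108 CPM in Nor_Bl_mono, 143, 93.9 and 74.2 CPM in NMO_Bl_mono and 214, 70.4 and 33.4 CPM in NMO_Br_mono. The brain libraries spread more widely than either blood group and enclosed all their values. Its log2 fold change was 0.03 (SE 0.77, edgeR adjusted p = 1) against NMO blood and -0.19 (SE 0.77, adjusted p = 1) against normal blood. For neither gene was a difference detectable at this spread.

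**Figure D2:**
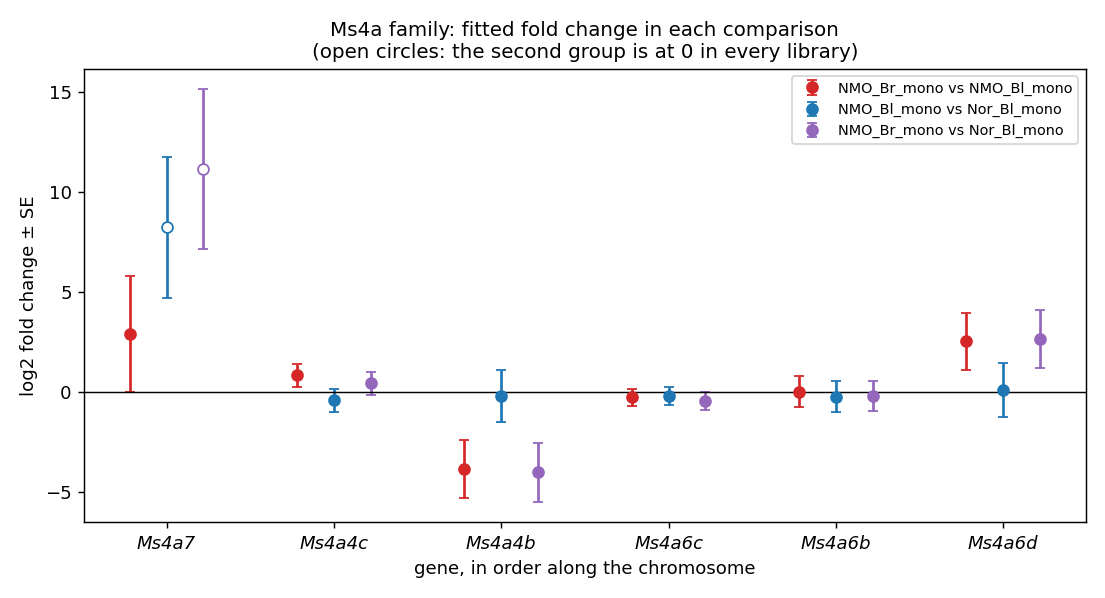
Fitted log2 fold change (vertical axis) of the 6 members in order along the chromosome, for the 3 comparisons in colour, with bars of 1 SE from edgeR. Ms4a4b is lower and Ms4a6d higher in both comparisons with brain, the values of Ms4a6c and Ms4a6b lie near 0, and open circles mark Ms4a7 against normal blood, where the fitted size depends on the fit because all 3 normal libraries are at 0.

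The shares of the members in the reads of the family are given as a description, with no test. The 6 members together reached 806, 1190 and 1180 CPM in Nor_Bl_mono, 999, 1160 and 639 CPM in NMO_Bl_mono and 1690, 1070 and 905 CPM in NMO_Br_mono, with overlap. Of the reads of the 6 genes, Ms4a6d took 28.2%, 49.9% and 28% in brain and 0% to 11.2% in the blood libraries. Ms4a6c took 43.5%, 26.7% and 43.8% in brain and 54.9% to 67.3% in blood. Ms4a4b took 0.1%, 0.00886% and 1.84% in brain and 3.57% to 20.2% in blood. The shares of these 3 genes did not overlap between brain and blood. Shares depend on each other, and the CPM of Ms4a6c overlapped between all groups. The ratio of Ms4a6d to Ms4a6c reads was 0.648, 1.87 and 0.640 in brain, against 0.0194, 0.0814 and 0.181 in normal blood and 0.170, 0.158 and 0 in NMO blood.

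**Figure D3:**
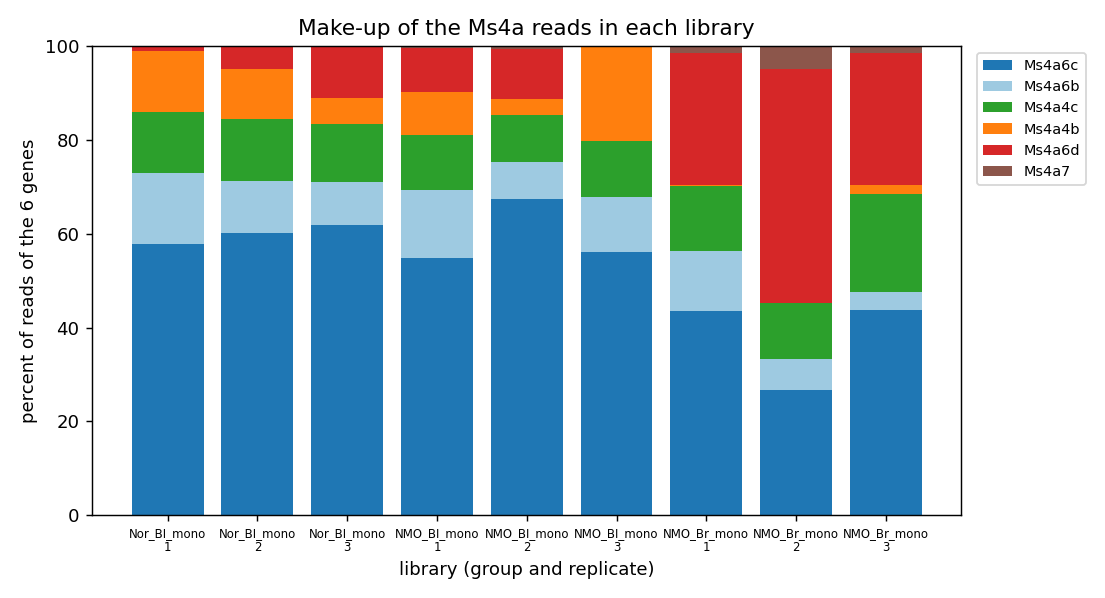
Percent of the reads of the 6 members (vertical axis) that came from each gene, in stacked bars for the 9 libraries. The Ms4a6d part is larger in each brain bar (28% to 49.9%) than in any blood bar (at most 11.2%), and the Ms4a4b part is at most 1.84% in brain.

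NMO_Bl_mono against Nor_Bl_mono compares circulating monocytes of injected and normal mice. None of the 6 members had groups without overlap, compared with 6.8% of all genes. By edgeR 0 of 6 members passed an adjusted p of 0.05, as did 0% of all genes. DESeq2 and limma-voom also called 0 members, and 0.712% and 0% of all genes. Log2 fold changes of 5 members lay between -0.41 (Ms4a4c, SE 0.58) and 0.12 (Ms4a6d, SE 1.35). Ms4a7 was the exception: its mean of 4.07 CPM was 11.6 times the floor of 3 counts per library in normal blood. That ratio covers counting error only, and replicate 3 of NMO_Bl_mono had no read of the gene either. Ms4a7 was the 1 member past the unadjusted threshold (unadjusted p = 0.0373, edgeR adjusted p = 1), which 0.712% of all genes passed. The gene fell short of that threshold when any of the Nor_Bl_mono libraries, replicate 1 or 2 of NMO_Bl_mono, or replicate 1 or 2 of NMO_Br_mono was left out. The members' median log2 fold change was -0.17, and that of all genes was -0.16.

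NMO_Br_mono against Nor_Bl_mono shares its brain libraries with the first comparison. Here 3 of 6 members did not overlap, Ms4a7 and Ms4a6d higher and Ms4a4b lower, against 15.4% of all genes. At an adjusted p of 0.05, edgeR called 0 of 6 members and 0.247% of all genes. DESeq2 called 1 member, Ms4a7, and 3.63% of all genes, and limma-voom called 0 members and 0.336% of all genes. Ms4a4b and Ms4a7 passed the unadjusted threshold, 2 of 6, against 5.82% of all genes. That count was 1 without replicate 1 of NMO_Br_mono and 3 without replicate 3 of NMO_Bl_mono, against 5.95% and 8.18% of all genes. The median log2 fold change was 0.13 for the members and -0.12 for all genes.

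**Figure D4:**
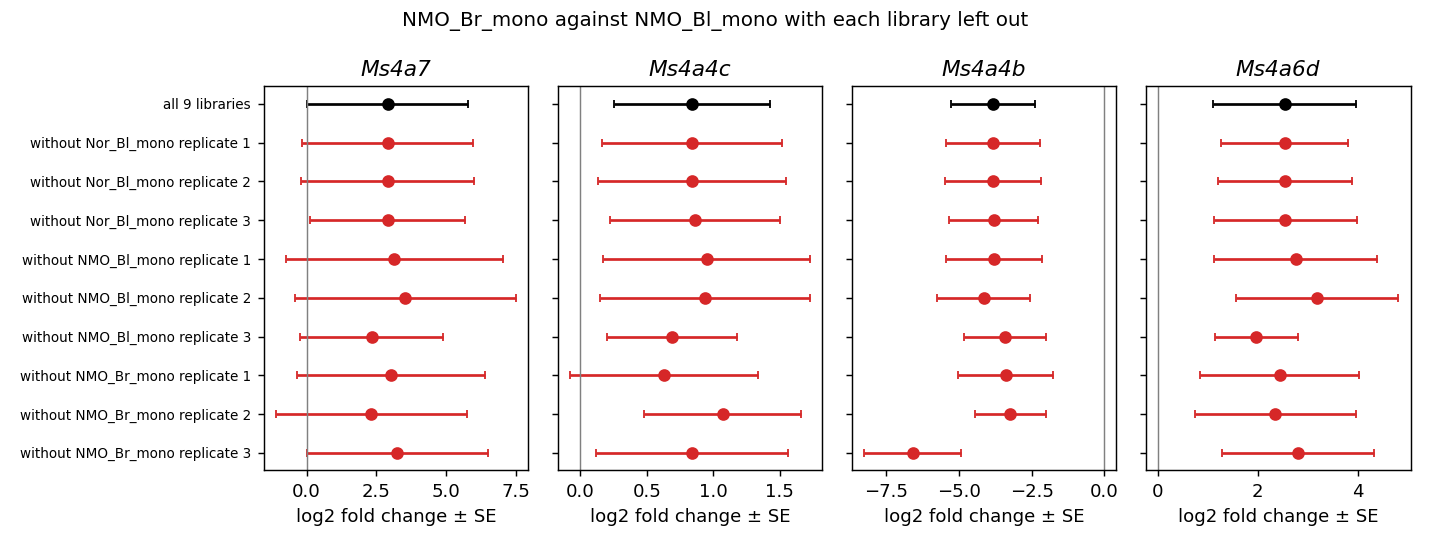
Log2 fold change of NMO_Br_mono against NMO_Bl_mono (horizontal axis, bars 1 SE from edgeR) for 4 members, with all 9 libraries in black and with each library left out in red, on a scale of its own for each gene. Every point of Ms4a4b lies below 0, from -6.59 to -3.23, and every point of Ms4a7, Ms4a4c and Ms4a6d lies above 0. For genes whose groups do not overlap, leaving out a library could hardly change the side of 0.

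For the rest of the family and its relatives no difference was detectable among the few genes tested. Of a list of 16 such genes 12 had a row and 4 were tested, and none was called in any comparison, adjusted or not. Tmem176b, an ion channel-like relative of myeloid cells, was the highest, at 157, 257 and 260 CPM in Nor_Bl_mono, 218, 322 and 0 CPM in NMO_Bl_mono and 411, 177 and 327 CPM in NMO_Br_mono. Its mean was 1.69-fold higher in brain than in NMO blood, with a log2 fold change of 0.76 (SE 1.31, edgeR adjusted p = 1). Its partner Tmem176a was at 25.5 to 70.2, 0 to 45.1 and 17.7 to 84.7 CPM in these groups, with a log2 fold change of 1.28 (SE 1.68, edgeR adjusted p = 1) in brain against NMO blood. Both, like Ms4a6d and Ms4a7, were at 0 in replicate 3 of NMO_Bl_mono alone among the NMO libraries. Ms4a8a measured 1.22 to 21.9 CPM, 15.9 to 23.8 CPM and 0 to 36.2 CPM. Of the genes outside the rule for naming, chosen after their values were seen, Ms4a1 (CD20) had reads in replicate 1 of each group, at 18.7, 7.38 and 7.53 CPM. Ms4a3, a gene of granulocyte and monocyte progenitors, had reads in replicate 2 of NMO_Br_mono alone, at 38.8 CPM. That library also had the highest sum of the neutrophil and granulocyte precursor genes. The 7 B cell markers summed to at most 116 CPM and the 4 mast cell and basophil markers to at most 26.6 CPM in any library.

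Of 7 partners of MS4A proteins, receptors and adaptors with which members have been described, all were tested and 0 passed an adjusted p of 0.05 by edgeR in any comparison. Clec7a, the fungal receptor dectin-1 that MS4A4A accompanies in macrophages, measured 422, 275 and 292 CPM in NMO_Br_mono and 197, 199 and 91.9 CPM in NMO_Bl_mono without overlap (log2 fold change 1.02, SE 0.54, adjusted p = 0.803), and 219, 384 and 129 CPM in Nor_Bl_mono. Tnfrsf18 (GITR), the partner of Ms4a4b, measured 36.2, 11.7 and 18.2 CPM in Nor_Bl_mono, 6.27, 36.3 and 0 CPM in NMO_Bl_mono and 0, 0.0946 and 0 CPM in NMO_Br_mono. Its NMO blood mean was 46.3 times the floor of the brain libraries, a ratio that covers counting error only, and the groups overlapped. Tnfrsf18 was the 1 partner past the unadjusted threshold in brain against NMO blood (unadjusted p = 0.0364, edgeR adjusted p = 0.802). Its log2 fold change was -8.28 (SE 3.58). Tyrobp, the adaptor DAP12, measured 887, 389 and 539 CPM in brain and 699, 744 and 443 CPM in NMO blood, and its receptor partner Trem2 measured 13.3, 0 and 71.0 CPM in brain and 8.22, 18.9 and 0 CPM in NMO blood. The kinase Syk, at 220, 64.1 and 95.7 CPM in brain and 185, 205 and 226 CPM in NMO blood, overlapped. Card9 and Kit reached at most 13 and 35.4 CPM in any library.

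Genes whose level was most alike over the 9 libraries were ranked by Pearson's r of log2(CPM + 1), as a description, since all points share library, depth and zeros. For Ms4a4b these were Satb1 (r = 0.986), a chromatin organiser of T cells, Ddx24 (0.978) and Mat2b (0.975). For Ms4a4c they were Pycard (0.924), the inflammasome adaptor ASC, the chemokine Ccl6 (0.923) and Necap1 (0.923). For Ms4a6b they were Zmiz2 (0.925), Crip1 (0.920) and Rpl27 (0.915), and for Ms4a6c Ado (0.959), Txndc12 (0.951) and Hes6 (0.947). For Ms4a6d they were Pdia6 (0.988), Shtn1 (0.983) and the lysosomal phosphatase Acp2 (0.966). For Ms4a7 they were Gm10684 (0.988), Soga1 (0.977) and Lcn2 (0.973), the iron-siderophore binding protein lipocalin 2. Among the members themselves, the largest r by size were -0.89 for Ms4a4b and Ms4a7, 0.78 for Ms4a4c and Ms4a6d, 0.75 for Ms4a6d and Ms4a7, and -0.70 for Ms4a4b and Ms4a6d. The close copies gave 0.62 for Ms4a6b and Ms4a6c and -0.52 for Ms4a4b and Ms4a4c.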

How the data were processed

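The deposited files hold raw read counts per gene symbol for each of 9 QuantSeq 3ʹ libraries of sorted monocytes. Per the study's methods, Bowtie2 was used for alignment (mm10 per the labels) and Bedtools for counting, with reads of several alignments included, and the authors did not normalize the deposited counts. Versions are not given in the sources used here.

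Each library listed 23282 entries. Of 35 repeated symbols the highest entry was used, and 10107 of 23238 symbols passed filterByExpr. Counts were scaled by TMM and tested in edgeR 4.0.16 (R 4.3.3) with glmQLFit and glmQLFTest on all 9 libraries, with Benjamini-Hochberg adjustment over all genes tested. The code was tested on simulated data with 16-fold changes. Recovery was required only at a spread between libraries (dispersion) far below the 2.87 of these data, so the test does not show power here. Alternatives were DESeq2 1.42.0, limma-voom (limma 3.58.1), other scalings and filters, a replicate block, and each library left out. BLAST 2.17.0+ aligned transcripts and promoters. The members and lists were chosen with earlier results of these data known. Relatives and partners were named at 10 CPM in at least 3 libraries, and marker genes by mean level. Leaving out both libraries that stood apart was chosen after seeing the data. Within a group, libraries were independent pools per the study's methods. Whether the blood and brain pools of injected mice came from the same mice is not stated there. Floors cover counting error only, whereas standard errors of the fits include the spread between libraries.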

Additional observations from a re-analysis of the deposited data

How the results depend on the processing

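The floor of 3 counts limits levels under 0.271 to 0.429 CPM, and each group has 3 libraries. Zeros in single libraries also occurred far above that floor: Tmem176b was at 218, 322 and 0 CPM in NMO_Bl_mono. The libraries of that group detected 4567 to 11556 genes, so a zero does not show absence down to the floor. Ms4a4b stayed lower and Ms4a6d and Ms4a7 higher in brain than in NMO blood in all 21 fits that tested them, and Ms4a4c stayed higher in all 22. The members past the unadjusted threshold in that comparison numbered 1, and 2 without the expression filter, with DESeq2 and with limma-voom, 0 with at least 10 counts in every library (which tests 3 members) and 0 with the libraries of the groups compared alone. Leaving out single libraries gave 0 to 2. The share of all genes past that threshold was 5.32%. It was 4.85% without the filter, 9.46% with DESeq2 and 12.8% with limma-voom. With at least 10 counts it was 11.6%, with the groups compared alone 3.11%, and with single libraries left out 3.41% to 6.25%. In NMO_Bl_mono against Nor_Bl_mono the count of 1 became 0 with at least 10 counts, with the groups compared alone, which does not test Ms4a7, and with the replicate block, and 0 to 1 with single libraries left out. In NMO_Br_mono against Nor_Bl_mono the 0 members called became 1 with DESeq2, and the 2 past the unadjusted threshold became 0 with at least 10 counts, 3 without the expression filter, with the groups compared alone, with DESeq2, with limma-voom and with both libraries that stood apart left out, and 1 to 3 with single libraries left out. The causes were not tested, apart from the members that a filter removes.

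Directions that reversed were of members near 0. For Ms4a6b in brain against NMO blood, the log2 fold change was -0.13 with library sizes alone, 0 without the filter, -0.22 with the block, -0.55 with limma-voom and -1 to 0.47 with single libraries left out (-0.02 and -0.15 among them). Ms4a6c there ranged from -0.73 to 0.07 with single libraries left out, at 0.02 without replicate 2 of NMO_Br_mono. In NMO blood against normal blood, Ms4a4b was 0.16 with library sizes alone and -0.56 to 0.16 with single libraries left out, at 0.06 without replicate 2 of Nor_Bl_mono. Ms4a6c was 0.09 with limma-voom, -0.49 to 0.06 with single libraries left out and 0.06 with both libraries that stood apart left out. Ms4a6d was -0.02 with library sizes alone, -0.13 with the block and -0.51 to 1.10 with single libraries left out (-0.39 and -0.10 among them). In brain against normal blood, Ms4a6b was 0.05 with both libraries left out and -1.22 to 0.25 with single libraries left out, at 0.05 without replicate 2 of NMO_Br_mono.

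The labels give no pairing of libraries, and replicate numbers were checked for one. With 3 libraries a group the check cannot show that pools shared no mice, and it does not cover a pairing under other numbers. Same-numbered libraries correlated in their deviations at -0.01 to 0.116, over 0.1 in 1 of 9 pairs. The block gave -4.77 for Ms4a4b and 2.66 for Ms4a6d in brain against NMO blood. The 1 call it changed was that of Ms4a7 at the unadjusted threshold in NMO blood against normal blood (7.52, unadjusted p = 0.0994). All-gene calls at an adjusted p of 0.05 in the 3 comparisons were 25, 0 and 25 with edgeR, 334, 72 and 367 with DESeq2, 51, 0 and 34 with limma-voom, and 110, 2 and 115 without the filter. With limma-voom the median log2 fold change of all genes moved from 0.05 to -0.67 in brain against NMO blood.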
